A study of Homo sapiens with 8 samples.

Results

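Retinoid enzymes and retinoic acid receptors were described in OCI-AML5 cells, a long-established line from a human acute myeloid leukemia. The set was a list of 10 named genes, and 8 of them matched a row of the 23562 rows of the deposited count table. ALDH1A1 and CYP26A1 matched no row and were not analysed here. The 8 RNA sequencing libraries came from OCI-AML5 cells transduced with the lentiCRISPRv2 vector, which carries Cas9 and a guide RNA. In 4 of them the guide was a non-specific control (sgControl 1 to 4), and in the other 4 it was directed at CEBPD, the gene of the transcription factor C/EBP delta (sgCEBPD 1 to 4). Each library held a different guide, and no source used here gives the time after transduction or any selection. No label says that any library repeats a transduction, so errors and p-values cover the spread among these 8 libraries and nothing wider.

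Retinoic acid is made from vitamin A (retinol) in successive oxidation steps. Retinol dehydrogenases of the short-chain dehydrogenase family (such as RDH10 and DHRS9) make retinal, other members of that family (DHRS3, RDH11) reduce retinal back to retinol, and ALDH1A enzymes oxidize retinal to retinoic acid, which CYP26 enzymes break down. Retinoic acid receptors (RARs) pair with retinoid X receptors (RXRs) on DNA and switch from repression to activation when the ligand binds. In myeloid cells the pathway is known for granulocytic differentiation and for acute promyelocytic leukemia, where RARA is fused to another gene, most often PML.

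The members were chosen by their CPM in these libraries, with results of the comparison of sgCEBPD with sgControl known, so their values in that contrast are given as a description and not as a test. Levels are in CPM, counts scaled to a common library size, with sizes adjusted by the trimmed mean of M-values (TMM). Log2 fold changes are sgCEBPD over sgControl from edgeR, with their standard error (SE). Library totals lay between 10217751 and 11521209 counts.

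The targeted transcript, CEBPD, stood at 202 to 216 CPM in sgControl 1 to 4 and at 107, 209, 195 and 164 CPM in sgCEBPD 1 to 4. Small Cas9 edits need not lower the amount of transcript, so these levels are no check of the labels. Of the 8 libraries, sgCEBPD 3 was the one most unlike the rest: it lay outside the range of the other 7 in 69.7% of the 13838 genes tested. Results are therefore also given without it. Leukocyte genes were present in every library. The 6 fixed ones (PTPRC, SPI1, CD33, SPN, LCP1 and CORO1A) summed to 3237 to 3492 CPM in sgControl. Their sum was 3388 to 3815 CPM in sgCEBPD 1, 2 and 4, and 5698 CPM in sgCEBPD 3. Within the sum, PTPRC was higher in sgCEBPD (405 to 943 CPM) than in sgControl (306 to 366 CPM). CD33 was lower in sgCEBPD (99.0 to 107 CPM) than in sgControl (122 to 143 CPM). With 7 libraries both passed an adjusted p of 0.05 in edgeR (0.0305 and 0.0199). With 8 neither did (0.329 and 0.153), and the remaining genes of this list passed in neither. Of 12 monocyte and macrophage genes, 11 matched a row and 10 were highest in sgCEBPD 3, beside 34.8% of all 13838 genes tested. The 10 differed in size and depth. CSF1R was at 538 CPM there against 387 to 503 CPM elsewhere, and FCGR3A rested on 15 counts there. The summed level of the 11 was 551 to 596 CPM in sgControl. It was 601, 712 and 539 CPM in sgCEBPD 1, 2 and 4, and 1072 CPM in sgCEBPD 3. CD14, a defining monocyte gene, was at 0 counts in 3 controls and at 41.0 CPM in sgCEBPD 3. TYROBP, of the same list, rose with 7 libraries (adjusted p = 0.0269 in edgeR) but not with 8 (0.272). The 8 myeloid progenitor genes with a row, of 9 listed, summed to 932 to 1099.9 CPM in sgControl, 864 to 1043 CPM in sgCEBPD 1, 2 and 4, and 1236 CPM in sgCEBPD 3. Within that list sgCEBPD 3 was high in SOX4 (533 CPM against 101 to 189 CPM elsewhere) and low in KIT (2.46 CPM against 18.1 to 51.9 CPM). The 7 neutrophil genes with a row, of 9 listed, summed to 320.2 to 359 CPM in sgControl. Their sum was 186, 243 and 203 CPM in sgCEBPD 1, 2 and 4, and 580.4 CPM in sgCEBPD 3. Without sgCEBPD 3 the groups did not overlap in this sum, which was lower in sgCEBPD, where DHRS9 was higher. With sgCEBPD 3 the groups overlapped in the sum and not in DHRS9. Most of the sum was CSF3R, the G-CSF receptor, at 288 to 308 CPM in sgControl. It stood at 170, 226, 418 and 188 CPM in sgCEBPD 1 to 4. MMP9, of the same list, was at 0 to 0.194 CPM in sgControl. In sgCEBPD 1 to 4 MMP9 was at 3.84, 9.46, 138 and 0.0864 CPM. Of the neutrophil genes, CTSG, a granule protease, fell with 8 libraries (adjusted p = 0.0183 in edgeR) and with 7 (0.00635). CSF3R fell with 7 (0.0117) but not with 8 (0.688). ELANE, a defining neutrophil granule gene, was at most 1.47 CPM and at 0 counts in sgCEBPD 1, 2 and 3. The part of these cell type genes in the members' values was not tested. The 4 lymphocyte genes with a row summed to 9.01 to 10.5 CPM in sgControl. Their sum was 5.53 to 7.66 CPM in sgCEBPD 1, 2 and 4. In sgCEBPD 3 it was 68.1 CPM, of which CD3D made 52.7 CPM. CD79A, of the same list, was lower in sgCEBPD (1.68 to 3.05 CPM) than in sgControl (5.14 to 5.95 CPM). It passed an adjusted p of 0.05 in edgeR with 7 libraries (0.0149) but not with 8 (0.135). In bulk RNA, fewer cells of a type and less RNA per cell cannot be told apart.

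Per length, DHRS9 had the highest level of the 8 genes in control cells. On the scale of CPM per kilobase of exon, with the exons of all GENCODE 29 transcripts of a gene merged, its control level was 24.0 ± 0.894 (SD, n = 4). RDH10 followed at 19.7 ± 2.49, RXRA at 18.9 ± 1.21 and RARA at 15.7 ± 1.24. The control ranges of RDH10 (17.6 to 22.6) and RXRA (17.3 to 20.3) overlapped, so their order is not settled by these libraries. The lowest DHRS9 control (22.7) lay just above the highest of RDH10. The order also depends on the length used: in CPM, the control means of RXRA (209) and RDH10 (105) were above that of DHRS9 (89.9). RDH11 stood lower, at 6.92 ± 0.337 CPM per kilobase. RARG (1.81 to 2.61) and RXRB (0.679 to 1.92) were low and their control ranges overlapped. DHRS3 was close to 0. RXRA and RARA thus stood well above RARG and above the measured level of RXRB, which is uncertain for reasons given with that gene. The measured retinol oxidizing side was DHRS9 with RDH10. In sgCEBPD cells the per-length levels of DHRS9 and RDH10 lay further apart, at 36.9 ± 4.98 and 11.9 ± 4.96 (SD, n = 4 each).

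**Figure D1:**
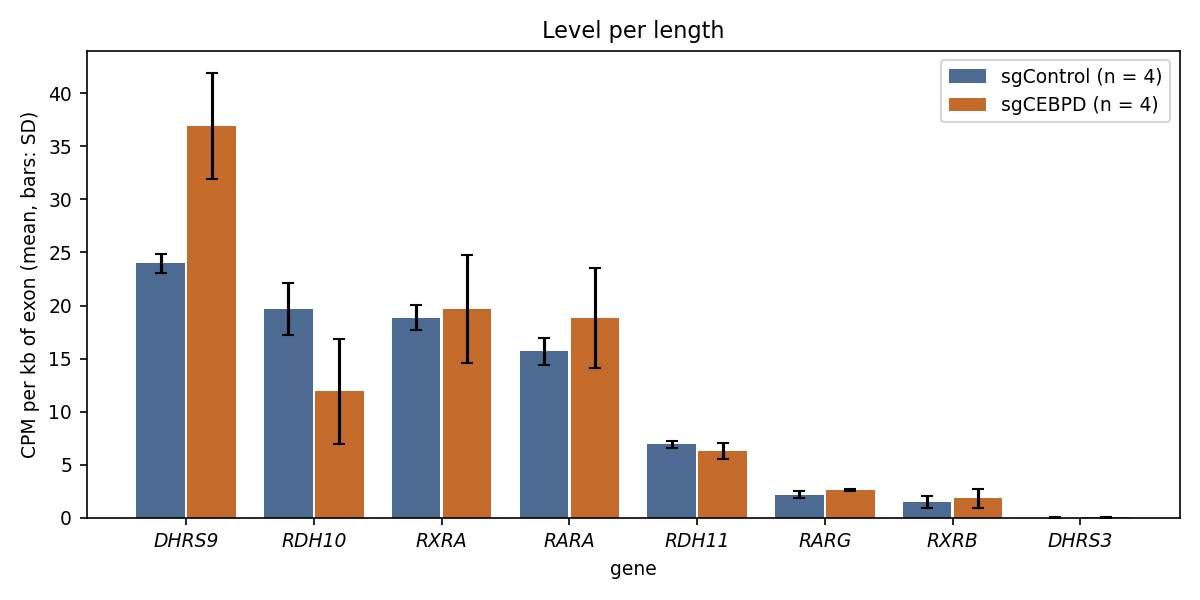
Level per length of the 8 measured genes, in CPM per kilobase of exon on a linear axis from 0. Bars are means of 4 sgControl (blue) or 4 sgCEBPD (orange) libraries and error bars are SD; DHRS9 is at 24.0 in controls and 36.9 in sgCEBPD, and RDH10 at 19.7 and 11.9.

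DHRS9 encodes a short-chain dehydrogenase that oxidizes retinol and also acts on steroids, and it has been used as a marker of human regulatory macrophages. It stood at 85.0, 91.5, 90.8 and 92.4 CPM in sgControl 1 to 4, from 944 to 1007 counts a library. In sgCEBPD 1 to 4 it stood at 114, 159, 142 and 139 CPM. Each of the sgCEBPD libraries lay above each of the controls, and sgCEBPD 3 was not the highest of them. The control mean was 89.9 ± 3.35 CPM and the sgCEBPD mean 138 ± 18.7 CPM (SD, n = 4 each), a ratio of 1.54. On the log2 scale the fold change was 0.62 (SE 0.10) with 8 libraries and 0.61 (SE 0.10) without sgCEBPD 3. The 4 control guides differed little from each other in DHRS9, with a coefficient of variation of 3.73%, while the sgCEBPD guides spread from 114 to 159 CPM. Monocyte and macrophage genes did not follow the same order: their summed level in sgCEBPD 4 (539 CPM) was below that of every control, where DHRS9 stood at 139 CPM. Of the 7 members tested, DHRS9 was the 1 whose groups did not overlap, beside 9.59% of all 13838 genes tested with 8 libraries (4.96% higher and 4.62% lower) and 14.4% of 14047 without sgCEBPD 3 (6.89% higher and 7.5% lower).

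DHRS9 lies on chromosome 2 from 169064789 to 169096167 on the plus strand (GRCh38) and has 8 transcripts in GENCODE 29. RefSeq (GRCh38.p14) gives 4 start windows for it, each with 250 bases before the start and 50 after. All 19 windows of the members were searched on both strands for the C/EBP core TTGCNNAA and for the receptor half-sites AGGTCA and AGTTCA. Direct repeats of those half-sites with a spacing of 1, 2 or 5 bases were sought as well. The windows of DHRS9 are described here because it was the member whose groups did not overlap. Its first 3 windows held none of these. The window farthest downstream held AGTTCA 2 times, both on the opposite strand, where it reads TGAACT on the printed strand, at positions -218 and 33 from the start (the first transcribed base is 1). For contrast, the second window of CYP26A1, the enzyme whose gene is a textbook target of retinoic acid, held a direct repeat of AGTTCA with a spacing of 5 bases from position -90, also on the opposite strand. Both windows are printed 5′ to 3′ on the gene's strand with the matches in capitals, DHRS9 at chr2:169080857-169081156 and CYP26A1 at chr10:93073643-93073942, both on the plus strand.
DHRS9: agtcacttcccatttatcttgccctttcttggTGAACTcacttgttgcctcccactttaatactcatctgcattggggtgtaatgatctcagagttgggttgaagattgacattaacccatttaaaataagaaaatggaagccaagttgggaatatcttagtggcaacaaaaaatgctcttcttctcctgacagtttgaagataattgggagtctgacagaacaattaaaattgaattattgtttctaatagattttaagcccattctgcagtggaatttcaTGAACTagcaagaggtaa
CYP26A1: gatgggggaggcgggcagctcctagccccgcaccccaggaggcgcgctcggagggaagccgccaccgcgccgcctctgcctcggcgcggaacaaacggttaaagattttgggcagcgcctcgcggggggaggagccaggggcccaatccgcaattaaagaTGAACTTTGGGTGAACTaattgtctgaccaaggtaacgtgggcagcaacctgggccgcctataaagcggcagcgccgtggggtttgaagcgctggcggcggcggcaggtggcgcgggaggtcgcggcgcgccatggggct
Among the other members, AGGTCA also matched in a window of DHRS3 (position -171) and a window of RARA (position -230). Over all 35116 windows in the table, 10.4% held AGTTCA, 13.8% AGGTCA and 10.5% TTGCNNAA, whereas 0.02% held a direct repeat with a spacing of 5. Half-sites are thus common letters in windows of this length and the spaced repeat is rare. These are matches of letters, and the counts do not show which start was used or whether a factor was bound.

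RDH10 encodes the retinol dehydrogenase that makes most of the retinal for retinoic acid in the embryo. It stood at 111, 93.6, 93.8 and 120.3 CPM in sgControl 1 to 4 and at 68.9, 59.0, 30.9 and 94.8 CPM in sgCEBPD 1 to 4. The libraries sgCEBPD 1, 2 and 3 lay below every control, but sgCEBPD 4 lay within the control range, so the groups overlapped. sgCEBPD 3 was the lowest, at 29.6% of the control mean. The means were 105 ± 13.2 CPM in sgControl and 63.4 ± 26.4 CPM in sgCEBPD (SD, n = 4 each). On the log2 scale the fold change was -0.72 (SE 0.29), and -0.49 (SE 0.18) without sgCEBPD 3. Without sgCEBPD 4 the 8-library value was -0.98. RDH10 lies on chromosome 8 from 73294612 to 73325281. It shares 278 exonic bases with the opposite-strand transcript RDH10-AS1, and reads in those bases cannot be assigned with certainty, because no source used here gives the strand setting of the counting. RDH10-AS1 itself was low, at 1.00 to 2.10 CPM in sgControl and 0.196 to 0.757 CPM in sgCEBPD. Thus DHRS9 and RDH10, both retinol oxidizing enzymes, stood on opposite sides of the control mean in the 4 sgCEBPD libraries.

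RDH11 encodes a retinal reductase of the endoplasmic reticulum, first described in prostate. It stood at 37.2, 36.9, 37.8 and 40.9 CPM in sgControl 1 to 4 and at 34.4, 38.8, 29.2 and 36.2 CPM in sgCEBPD 1 to 4. sgCEBPD 1, 3 and 4 lay below every control and sgCEBPD 2 among them, and the lowest, sgCEBPD 3, was at 76.4% of the control mean. The log2 fold change was -0.14 (SE 0.10), and -0.07 (SE 0.07) without sgCEBPD 3, and the groups overlapped in both. RDH11 shares 346 exonic bases with a same-strand gene, AL049779.1, which could take or give reads.

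DHRS3, which reduces retinal to retinol and is itself induced by retinoic acid in many cells, was at the limit of detection. It had 0, 3, 0 and 0 counts in sgControl 1 to 4 and 1, 1, 4 and 1 counts in sgCEBPD 1 to 4. Its values lay at 0 to 0.393 CPM, where 3 counts correspond to 0.259 to 0.295 CPM, so no fold change is given. It did not pass the filter on low counts and entered no fit.

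**Figure D2:**
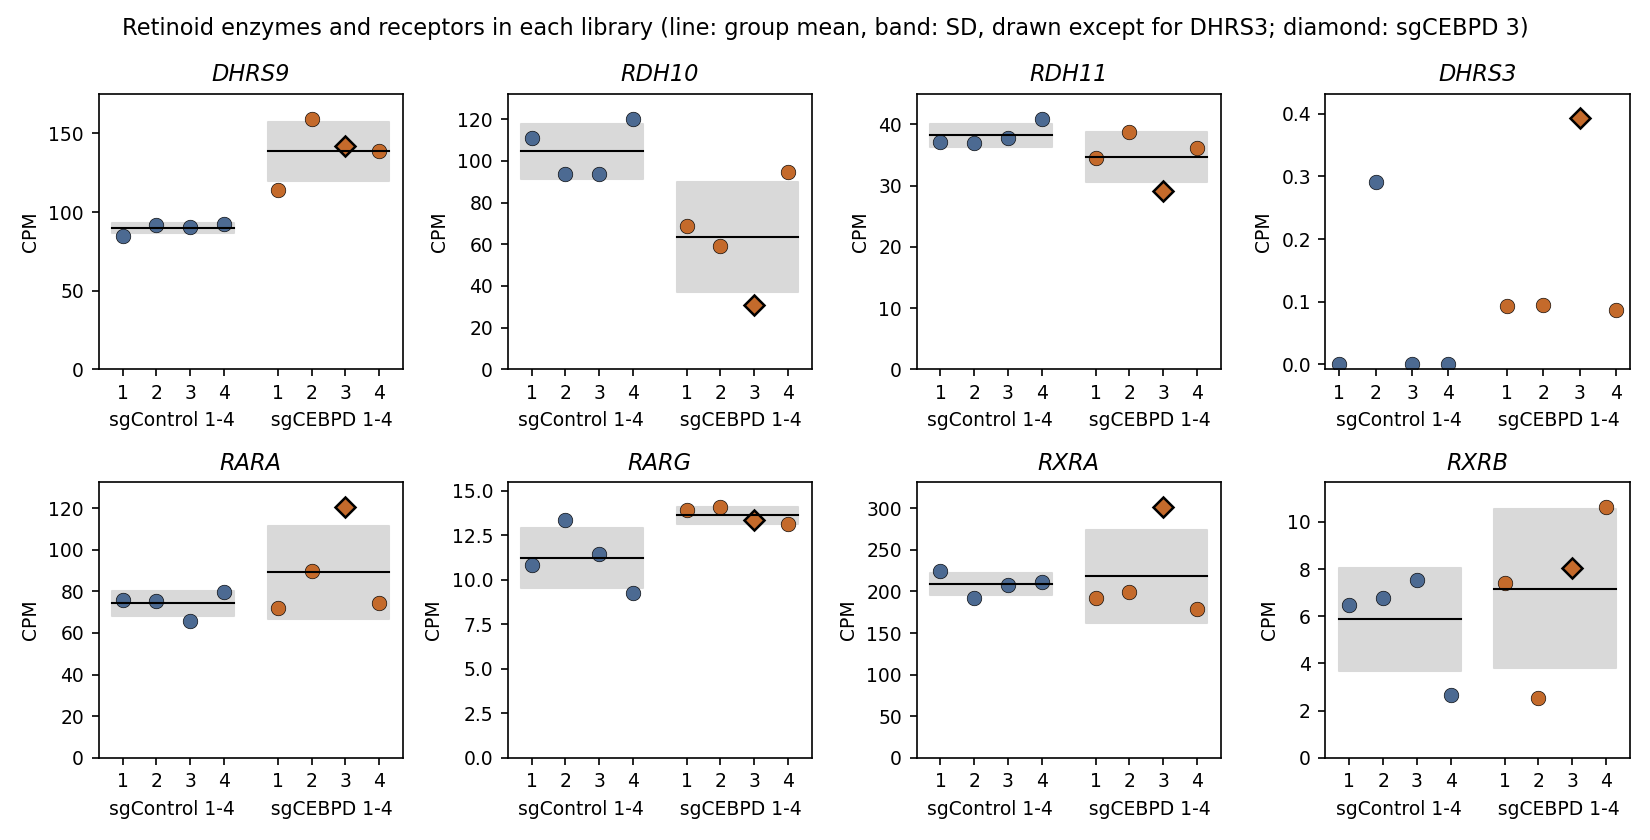
CPM of the 8 measured genes in each library, on linear axes from 0, with sgControl 1 to 4 in blue and sgCEBPD 1 to 4 in orange. Lines are group means and bands SD (not drawn for DHRS3), and the diamond is sgCEBPD 3; in DHRS9 the sgCEBPD points (114 to 159 CPM) lie above the controls (85.0 to 92.4 CPM), and in RDH10 3 of 4 lie below them.

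Among the receptors, sgCEBPD 3 had the highest levels of RARA and RXRA, while the other sgCEBPD libraries lay in or near the control range. RARA, the receptor fused in promyelocytic leukemia, stood at 76.0, 75.1, 66.0 and 79.9 CPM in sgControl 1 to 4 and at 72.1, 89.7, 120.5 and 74.5 CPM in sgCEBPD 1 to 4. sgCEBPD 3 was at 162% of the control mean and sgCEBPD 2 was also above every control, while sgCEBPD 1 and 4 lay among them. The log2 fold change was 0.26 (SE 0.16) with 8 libraries and 0.09 (SE 0.09) without sgCEBPD 3, and without sgCEBPD 2 the 7-library value was -0.01. RARA lies on chromosome 17 from 40309192 to 40357643. It shares 556 exonic bases with RARA-AS1, which was at 0.0908 to 0.432 CPM.

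RXRA encodes the RXR with the highest measured level here, though the level of RXRB is uncertain. It is a partner of RARs and of several other nuclear receptors. RXRA stood at 225, 192, 208 and 211 CPM in sgControl 1 to 4 and at 193, 199, 301 and 179 CPM in sgCEBPD 1 to 4. sgCEBPD 3 was far above the rest, and the other sgCEBPD libraries lay in the lower part of the control range or under it. The direction of RXRA therefore differed with that library: the log2 fold change was 0.06 (SE 0.16) with 8 libraries and -0.14 (SE 0.06) without sgCEBPD 3. Of the 2 start windows of RXRA in RefSeq, the first held the only C/EBP core among the members' 19 windows. Of all 35116 windows 10.5% held this core, and a match of letters does not show that a factor was bound. The RXRA window lies at chr9:134326205-134326504 on the plus strand. Its match, in capitals, begins at position 21 and lies on the opposite strand, reading TTTTGCAA as printed.
RXRA: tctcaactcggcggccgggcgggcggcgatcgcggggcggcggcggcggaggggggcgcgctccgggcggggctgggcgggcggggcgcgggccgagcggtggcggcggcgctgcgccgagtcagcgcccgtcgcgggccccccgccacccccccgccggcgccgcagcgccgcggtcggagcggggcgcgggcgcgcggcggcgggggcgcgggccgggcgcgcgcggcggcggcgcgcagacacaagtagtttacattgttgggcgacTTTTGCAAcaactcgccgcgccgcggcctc

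RARG, a receptor known for a role in hematopoietic stem cell self-renewal, stood at 10.8, 13.4, 11.4 and 9.27 CPM in sgControl 1 to 4. In sgCEBPD 1 to 4 it stood at 13.9, 14.1, 13.4 and 13.1 CPM, a range of about 1 CPM that included sgCEBPD 3. The highest control, sgControl 2, lay inside that range, and the other controls below it. The log2 fold change was 0.28 (SE 0.13), and 0.29 (SE 0.13) without sgCEBPD 3. RARG rested on 101 to 152 counts a library.

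RXRB, which pairs with RARs as RXRA does, varied most within groups. It stood at 6.47, 6.78, 7.54 and 2.66 CPM in sgControl 1 to 4 and at 7.39, 2.55, 8.06 and 10.6 CPM in sgCEBPD 1 to 4, from 27 to 123 counts. In each group 1 library was low, sgControl 4 and sgCEBPD 2. The control coefficient of variation was 37.2%, against 3.73% to 15.1% in the other 6 members tested, and the log2 fold change of 0.29 had an SE of 0.44. RXRB lies in the major histocompatibility region, on chromosome 6 from 33193588 to 33200688, and shares 244 exonic bases with SLC39A7 on the opposite strand (10.7 to 16.9 CPM). Other genes of that region had low counts for their kind. RPS18, a ribosomal protein gene, had 12.2 to 49.3 CPM, against 644 to 811 CPM for RPS19 on chromosome 19. TUBB, a tubulin gene, had 0 to 0.363 CPM, against 187 to 242 CPM for TUBA1B. These comparison genes were singled out once their values had been looked at. How the authors' counting treated reads from this region was not given in the sources used here, its part in the RXRB values was not tested, and the level of RXRB is uncertain.

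**Figure D3:**
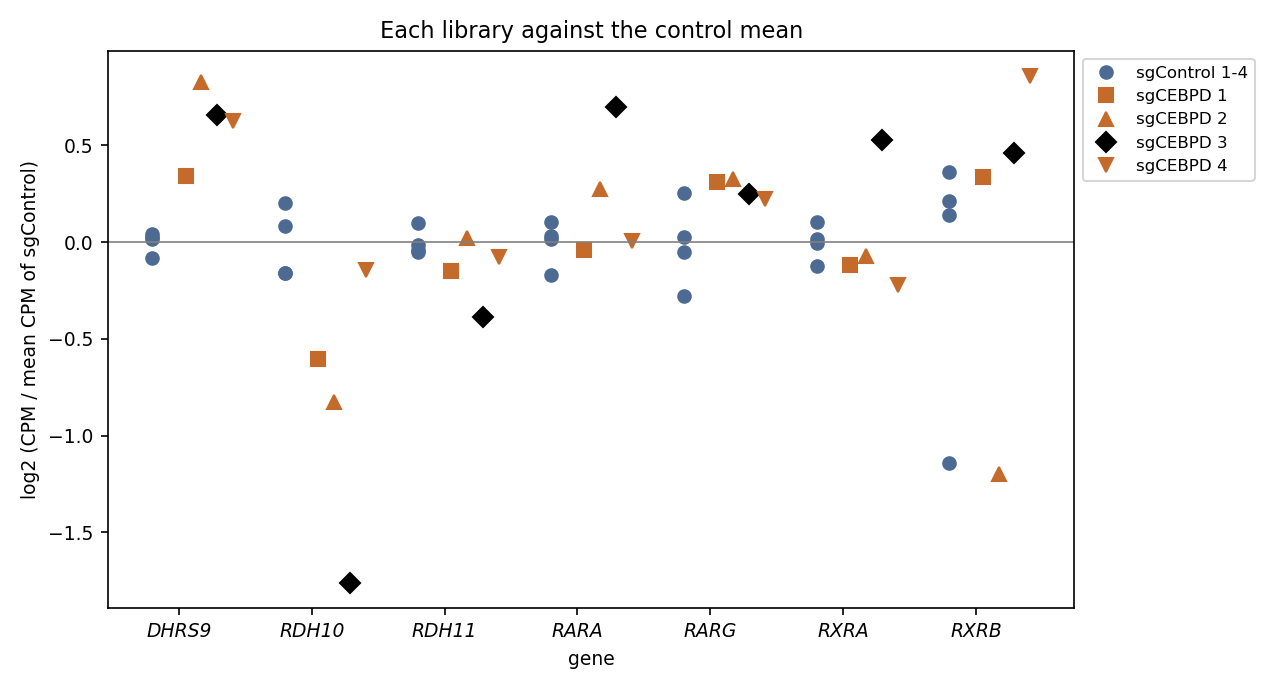
Log2 ratio of each library to the mean of the 4 controls, for the 7 genes with counts in every library. Blue circles are sgControl 1 to 4, other markers the 4 sgCEBPD libraries, with sgCEBPD 3 in black; sgCEBPD 3 is farthest from the controls in RDH10, RDH11, RARA and RXRA, and the 2 low RXRB points are sgControl 4 and sgCEBPD 2.

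sgCEBPD 3 lay outside the range of the other 7 libraries in 4 of the 7 members tested, above them in 2 (RARA and RXRA) and below them in 2 (RDH10 and RDH11). Of all genes tested, 34.8% lay above and 34.9% below, 69.7% together. Past an adjusted p of 0.05 in edgeR were 0 of the 7 members with 8 libraries, beside 0.0795% of all genes tested (0.00723% higher and 0.0723% lower), and 2 of the 7 had an unadjusted p under 0.05, as had 1576 of all 13838 genes. DESeq2 and voom each placed 1 member (DHRS9) past it, beside 292 and 233 of all 13838 genes. Without sgCEBPD 3 there was 1 of 7, DHRS9, beside 2.01% of all genes (0.705% higher and 1.31% lower). That call was lost when any 1 of the 4 controls or sgCEBPD 4 was left out as well. DESeq2 and an edgeR fit blocked by guide number each placed 2 members past that threshold with 7 libraries, DHRS9 and RDH10. Those fits placed 596 and 352 of all 14047 genes past it. Without sgCEBPD 4 it was RDH10 alone, beside 312 of 14290 genes. These counts describe the contrast that chose the members and support nothing.

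The genes with profiles most like 3 members, those with the widest log2 range over the 8 libraries, were sought among 12321 genes with a mean of at least 2 CPM. Likeness was the root mean square difference in log2 CPM after each gene's control mean was subtracted. Nearest to DHRS9 were PCK2, the mitochondrial enzyme that makes phosphoenolpyruvate (0.10), ARRDC3, an arrestin-like protein (0.14), and CYSLTR1, a leukotriene receptor (0.14). PCK2, for example, stood at 53.7, 58.3, 62.0 and 72.1 CPM in sgControl 1 to 4 and at 77.6, 102, 92.7 and 87.8 CPM in sgCEBPD 1 to 4. As in DHRS9, its highest sgCEBPD library was sgCEBPD 2. Nearest to RDH10 were DDAH1, which degrades an inhibitor of nitric oxide synthase (0.18), HSPA4L, a heat shock protein (0.18), and FAM241A (0.19). DDAH1 stood at 51.0 to 57.8 CPM in sgControl and at 48.9, 34.1, 15.8 and 48.5 CPM in sgCEBPD 1 to 4, lowest in sgCEBPD 3 as RDH10 was. The nearest profiles to RXRB (EPSTI1, LINC01094 and PDGFA) were much less alike, at 0.38 to 0.40.

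The rest of the pathway was followed in 102 further genes listed by role, of which 74 matched a row. With 8 libraries 50 were tested, and 0 rose and 0 fell past an adjusted p of 0.05 in edgeR, beside 0.0795% of all genes tested. At an unadjusted p under 0.05 there were 6 of 50, against 1576 of 13838 genes. DESeq2 called 1 (CD38) and voom with quality weights 0, beside 292 and 233 of all genes. Without sgCEBPD 3, 51 were tested, again with 0 past the test, beside 2.01% of all genes, and 10 of 51 had an unadjusted p under 0.05, against 2172 of 14047 genes. DESeq2 then called 2 (CD38 and TNFSF10) and voom 0, beside 596 and 229 of all genes. The median log2 fold change of the lists was 0.03 with 8 libraries and 0.01 with 7, where the median of all genes was 0.00 in both.

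Of 20 genes of retinoid uptake, binding and storage, 5 were tested with 8 libraries. The most abundant were DGAT1, which can esterify retinol, at 71.3 to 73.8 CPM in sgControl and 69.2 to 78.7 CPM in sgCEBPD, and FABP5, which carries retinoic acid to PPARD, at 72.5 to 82.4 and 46.5 to 77.6 CPM. FABP5 was lowest in sgCEBPD 3. LPL, a lipase that also frees retinol from its esters, ranged from 0.818 to 34.6 CPM among controls alone, and its log2 fold change of 0.95 had an SE of 1.35. Of 21 further retinol and retinal oxidoreductases 7 were tested, with a median of -0.14. AKR1B1, an aldo-keto reductase, was the highest, at 138 to 168 CPM in sgControl and 113 to 185 CPM in sgCEBPD. RETSAT, which saturates retinol, stood at 40.5 to 45.5 CPM in sgControl and at 29.2 CPM in sgCEBPD 3. Among the other retinal dehydrogenases and retinoic acid hydroxylases only CYP1B1 was tested. CYP1B1, a cytochrome that can oxidize retinol and retinal, stood at 19.2 to 24.6 CPM in sgControl, at 18.4, 27.5 and 29.5 CPM in sgCEBPD 1, 2 and 4, and at 229 CPM in sgCEBPD 3. Its log2 fold change was 1.82 (SE 0.79) with that library and 0.23 (SE 0.16) without it. ALDH1A2 and ALDH1A3, which make retinoic acid, did not pass the filter, and neither did RARB.

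Of 13 receptors that pair with RXRs, 9 were tested. NR1H2, the oxysterol receptor LXR beta, stood at 80.0 to 87.6 CPM in sgControl and 78.5 to 114 CPM in sgCEBPD. THRA, a thyroid hormone receptor, stood at 64.9 to 70.5 CPM in sgControl and at 61.0, 56.2, 19.1 and 53.6 CPM in sgCEBPD 1 to 4. Its groups did not overlap with or without sgCEBPD 3. Of all genes tested, 4.62% lay lower without overlap with that library and 7.5% without it. The adjusted p of THRA in edgeR was 0.536 with sgCEBPD 3 and 0.0779 without it. VDR, the vitamin D receptor, stood at 47.0 to 55.3 CPM in sgControl and at 89.9 CPM in sgCEBPD 3. PPARA, a fatty acid receptor, stood at 11.4 to 16.1 CPM in sgControl, at 9.73, 10.8 and 9.67 CPM in sgCEBPD 1, 2 and 4 and at 32.7 CPM in sgCEBPD 3, so that its log2 fold change was 0.19 with 8 libraries and -0.45 with 7.

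All 15 corepressors and coactivators had a row, and 14 were tested. NCOR1, a corepressor of unliganded RARs, stood at 271 to 279.7 CPM in sgControl and at 269 to 273 CPM in sgCEBPD, and its groups overlapped. CREBBP (217 to 243 CPM in sgControl and 224 to 265 CPM in sgCEBPD) and KMT2D (417 to 432 and 384 to 460 CPM) overlapped. The groups of CARM1, an arginine methyltransferase, did not overlap, at 117 to 123 CPM in sgControl and 124 to 131 CPM in sgCEBPD. Of all genes tested, 9.59% were likewise without overlap with 8 libraries and 14.4% with 7. The ratio of the CARM1 means was 1.07, and its adjusted p in edgeR was 0.477 with 8 libraries and 0.334 with 7.

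Of 19 genes known to be induced by retinoic acid or tied to RARA, 14 were tested, and 4 had a positive log2 fold change with 8 libraries and 8 with 7. CD38, a surface enzyme whose gene retinoic acid strongly induces in myeloid cells, stood at 51.9, 65.1, 67.0 and 53.4 CPM in sgControl 1 to 4. In sgCEBPD 1 to 4 it stood at 39.2, 44.5, 29.5 and 20.9 CPM, each below every control. Of all genes tested with 8 libraries, 4.62% lay lower without overlap. The log2 fold change of CD38 was -0.83 with an adjusted p of 0.272 in edgeR, and 0.0292 in DESeq2. Over the alternatives of the 7-library comparison, CD38 was past the threshold in DESeq2 alone. ZBTB16 (PLZF), another fusion partner of RARA, stood at 147 to 211 CPM in sgControl and at 150.3, 76.4, 170 and 132 CPM in sgCEBPD 1 to 4. PML stood at 42.4 to 47.5 CPM in sgControl, at 47.5 to 52.9 CPM in sgCEBPD 1, 2 and 4, and at 74.1 CPM in sgCEBPD 3. BTG2, an antiproliferative gene, was at 35.5 to 55.2 CPM in sgControl and at 175 CPM in sgCEBPD 3. PRAM1, an adaptor first found as a retinoic acid responsive gene, stood at 66.0 to 77.3 and 50.9 to 77.8 CPM. CD38, TNFSF10 and CARM1 are outside the rule for named genes and were named with their values known.

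**Figure D4:**
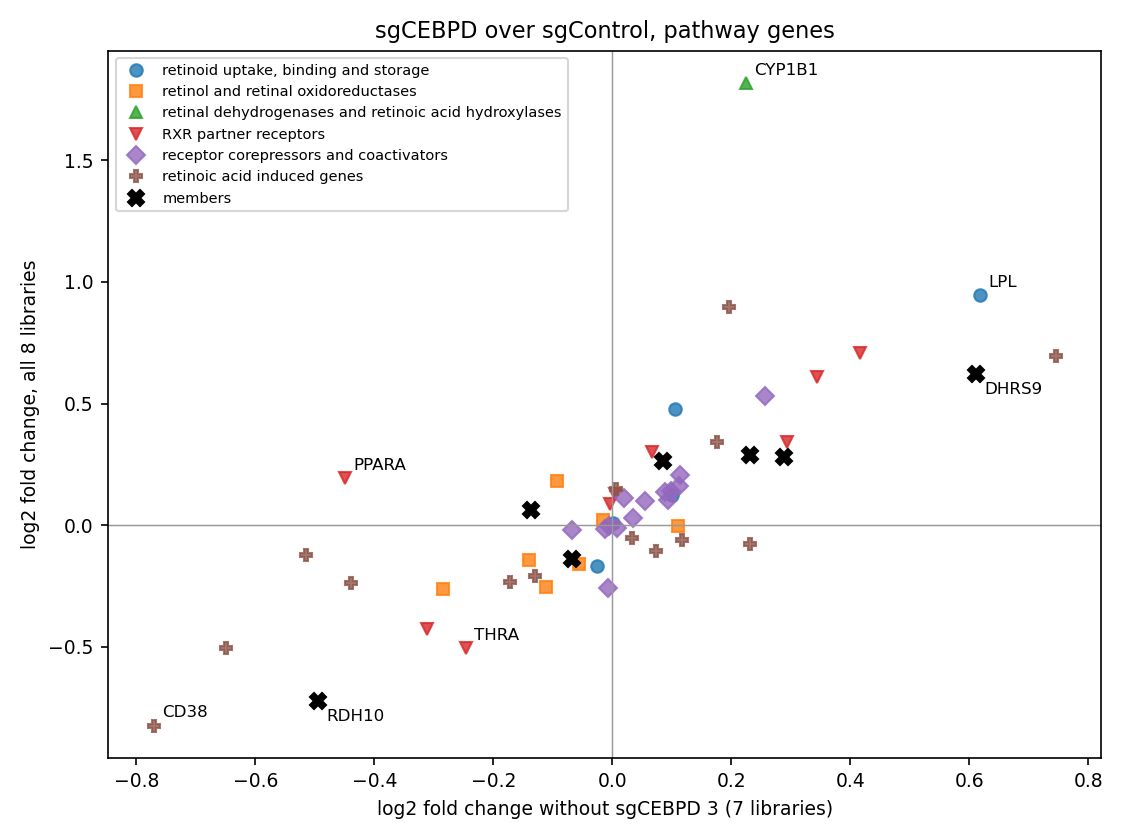
Log2 fold change (sgCEBPD over sgControl) of the tested pathway genes without sgCEBPD 3 (horizontal axis) and with all 8 libraries (vertical axis), coloured by list, with members as black crosses. DHRS9 (0.61 and 0.62) keeps its place in both, CYP1B1 (0.23 and 1.82) does not, and CD38 (-0.77 and -0.83) and RDH10 (-0.49 and -0.72) lie at the lower left.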

How the data were processed

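RNA sequencing of 8 OCI-AML5 libraries was analysed, 4 sgControl and 4 sgCEBPD. The deposited values were raw read counts per gene made by the authors and not normalised. Per the labels' protocols, RNA was extracted with phenol-chloroform and Trizol and libraries were made from polyadenylated RNA. HISAT2, FastQC and DESeq2 are named, with the build hg38, per the submitters' processing notes. No source used here gives the tool, strand setting or gene models of the counting. Columns were matched by library name.

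The counts were fitted with edgeR 4.0.16 in R 4.3.3 (filterByExpr with the group, TMM, robust quasi-likelihood test, group as the only term), with Benjamini-Hochberg adjustment over all genes tested and a threshold of 0.05. The fit was repeated without sgCEBPD 3. CPM use the TMM scaling of the 8-library fit, and SE was obtained from the log2 fold change and its F statistic. Members and lists were chosen with earlier results of these data known. Named genes were the members, list genes past the threshold, the 4 most abundant tested genes of each list, and the 3 nearest profiles of 3 members. Alternatives were DESeq2 1.42.0, limma 3.58.1 (voom with library quality weights), other scalings and filters, the guide number as a block, an adjusted p under 0.01 and each library left out.

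Positions and exon lengths came from GENCODE 29 on GRCh38, the build hg38 names, by symbol. Promoter windows came from RefSeq, and 9 of the 10 members matched. The fits were also tested on simulated data. A result of the named genes rule is not reported here.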

Additional observations from a re-analysis of the deposited data

Results flagged for a closer look

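Of 62 groups of 4 libraries examined for the named genes, 10 had a highest or lowest library widely separated from the remaining 3. For independent groups chance would flag about 1 in 20, here 3.1. The groups all come from the same 8 libraries, so the 10 do not measure an excess over chance. In 6 of the 10 the library was sgCEBPD 3. RXRA stood at 301 CPM in sgCEBPD 3, against 179 to 199 CPM in the other sgCEBPD libraries. DHRS3 stood at 0.393 CPM there, from 4 counts, and at 0.291 CPM in sgControl 2, from 3 counts, so both rest on very few reads. CYP1B1 stood at 229 CPM in sgCEBPD 3, BTG2 at 175 CPM, DHRS7, a dehydrogenase of the same family as DHRS9, at 42.0 CPM and PPARA at 32.7 CPM, each above the other sgCEBPD libraries. LPL stood at 34.6 CPM in sgControl 2, FABP5 at 82.4 CPM in sgControl 4, and RDH14, a retinol dehydrogenase, at 9.24 CPM in sgCEBPD 4, where the other sgCEBPD libraries had 11.9 to 12.4 CPM.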

How the results depend on the processing

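With 8 libraries edgeR placed 11 of all genes past the threshold, DESeq2 292, voom with quality weights 233 and the fit with no filter 20. An adjusted p under 0.01 left 1 and the guide number as a replicate block left 1. Leaving out single libraries gave 0 to 283: 0 without sgCEBPD 2 in edgeR (1345 had an unadjusted p under 0.05), 1 without sgControl 1, 3 or 4, 6 without sgControl 2 or sgCEBPD 1, and 283 without sgCEBPD 3. With 7 libraries edgeR gave 283, DESeq2 596 and an adjusted p under 0.01 gave 40, and leaving out single libraries gave 66 to 312: with sgControl 1 left out it was 66, with sgControl 3 142, with sgControl 4 152, with sgCEBPD 1 139 and with sgCEBPD 2 146. The cause of these differences was not tested. Of the further pathway genes, edgeR called 0 in both comparisons. DESeq2 called 1 with 8 libraries and 2 with 7. With 7 libraries the fit with no filter called 1 (TNFSF10) and the replicate block 1 (ZBTB16), beside 403 and 352 of all genes.

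The guide number marks a different guide in each group and was not used as a pairing. Deviations from the group means of same-numbered libraries correlated across genes at -0.08 to 0.06 with 8 libraries, and of the 4 numbers only number 2 correlated best with its own. DHRS9 kept its direction in the alternatives run, with log2 fold changes of 0.55 to 0.71 (8 libraries) and 0.50 to 0.73 (7 libraries). Its call with 7 libraries ended without any 1 of the 4 controls (adjusted p in edgeR 0.0508 to 0.0856) and without sgCEBPD 4 (0.0577). RDH10 stayed negative, at -0.98 to -0.49 and -0.71 to -0.35. With 7 libraries, where its adjusted p in edgeR was 0.262, RDH10 passed the threshold in 3 of 14 alternatives: DESeq2 (0.0260), the replicate block (0.0147) and without sgCEBPD 4 (0.0367). RXRA with 8 libraries was -0.13 with voom quality weights and -0.14 without sgCEBPD 3, the other direction. With 7 libraries RXRB was -0.24 without sgCEBPD 4 and -0.01 without sgControl 4, and RARA -0.01 without sgCEBPD 2. Depth limits DHRS3 (0 to 4 counts) and RXRB (27 to 123 counts). The floor of 3 counts given for DHRS3 covers counting error only, while SE and SD cover the spread among these libraries.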
